A study of Mus musculus with 12 samples.

Results

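Voltage-gated sodium channel genes were followed through neocortical development in Chd8+/+ and Chd8+/- mice. The genes were chosen by symbol and are Scn1a, Scn2a, Scn3a and Scn8a, which encode pore-forming alpha subunits, and Scn2b, Scn3b and Scn4b, which encode auxiliary beta subunits. All 7 were found among the 46603 genes of the count tables, and all 7 passed the filter on low counts at both stages. RNA was sequenced from neocortex at embryonic day 12.5 (E12.5) and postnatal day 5 (P5), with n = 3 libraries in each of the 4 groups E12.5 Chd8+/+, E12.5 Chd8+/-, P5 Chd8+/+ and P5 Chd8+/-. Chd8+/+ mice carry normal alleles only. Chd8+/- mice carry 1 allele that lacks exon 3, made with the ubiquitously active β-actinCre, and the line was then bred on without Cre, so that the allele is in the germline and not limited to a cell type. All groups had the strain background C57Bl/6J, and none received a treatment. Both hemispheres were taken at E12.5 and a single hemisphere at P5.

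A voltage-gated sodium channel is built from a large alpha subunit, which holds the pore and the voltage sensors, and smaller beta subunits, which modify gating and transport to the cell surface. The channels carry the rising phase of the action potential and are concentrated at the axon initial segment, where ankyrin-G holds them. In rodent cortex Scn3a is known as the embryonic alpha gene, Scn2a as the main early postnatal gene of excitatory neurons, Scn8a as the gene of mature axon initial segments, and Scn1a as a gene of later onset that is prominent in parvalbumin interneurons. The products of Scn2b and Scn4b are joined to alpha subunits by a disulfide bond, whereas that of Scn3b is not. Human SCN2A and CHD8, which encodes a chromatin remodeler, are both well-established autism genes.

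In the mouse genome (GRCm38), Scn3a (ENSMUSG00000057182) covers chr2:65457118-65567627 on the minus strand and is separated by 53.1 kb from Scn2a (ENSMUSG00000075318), which covers chr2:65620771-65767447 on the plus strand. Scn1a (ENSMUSG00000064329) lies 503 kb further on at chr2:66270778-66440840, on the minus strand, and is followed after 39.2 kb by Scn9a. Scn8a (ENSMUSG00000023033) is at chr15:100869858-101045938 on the plus strand. Scn2b (ENSMUSG00000070304, chr9:45117876-45130070) and Scn4b (ENSMUSG00000046480, chr9:45138437-45154152) are neighbours on the plus strand, 8.37 kb apart. Scn3b (ENSMUSG00000049281) is at chr9:40269216-40291618, also on the plus strand. The alpha genes have 28 to 35 merged exons and span 110510 to 176081 bases, whereas the beta genes have 4 or 5 merged exons and span 12195 to 22403 bases. No exonic base of the 7 genes is shared with another annotated gene.

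The sequence around the transcription start is printed for 5 of the genes, because they differ widely in CG dinucleotides, the bases at which mammalian DNA is methylated, while each of them was higher at P5 than at E12.5. RefSeq (GRCm38.p6) gave 7 start regions for 5 of the 7 genes, and Scn3a and Scn3b were not matched. Each region holds 250 bases before and 50 bases after a start, and capitals mark CG dinucleotides. The first of the start regions is shown for Scn2a and for Scn8a.
Scn1a, chr2:66440788-66441087, minus strand: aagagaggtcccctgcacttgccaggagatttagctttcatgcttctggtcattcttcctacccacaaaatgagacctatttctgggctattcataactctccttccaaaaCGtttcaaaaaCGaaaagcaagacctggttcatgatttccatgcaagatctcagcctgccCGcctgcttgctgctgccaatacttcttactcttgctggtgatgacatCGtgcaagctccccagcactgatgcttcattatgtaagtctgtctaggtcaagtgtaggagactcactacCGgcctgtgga
Scn2a, chr2:65620519-65620818, plus strand: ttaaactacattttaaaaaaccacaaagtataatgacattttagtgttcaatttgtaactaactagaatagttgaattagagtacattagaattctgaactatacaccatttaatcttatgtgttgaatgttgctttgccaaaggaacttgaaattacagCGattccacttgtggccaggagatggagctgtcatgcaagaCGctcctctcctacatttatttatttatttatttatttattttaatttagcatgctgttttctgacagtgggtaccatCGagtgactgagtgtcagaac
Scn8a, chr15:100870395-100870694, plus strand: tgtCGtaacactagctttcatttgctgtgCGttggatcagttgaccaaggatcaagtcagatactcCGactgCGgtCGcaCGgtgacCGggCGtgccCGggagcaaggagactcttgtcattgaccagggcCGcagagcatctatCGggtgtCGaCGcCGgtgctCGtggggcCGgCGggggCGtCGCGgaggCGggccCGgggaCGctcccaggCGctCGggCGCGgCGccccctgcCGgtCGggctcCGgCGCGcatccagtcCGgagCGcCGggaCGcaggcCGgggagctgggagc
Scn2b, chr9:45117626-45117925, plus strand: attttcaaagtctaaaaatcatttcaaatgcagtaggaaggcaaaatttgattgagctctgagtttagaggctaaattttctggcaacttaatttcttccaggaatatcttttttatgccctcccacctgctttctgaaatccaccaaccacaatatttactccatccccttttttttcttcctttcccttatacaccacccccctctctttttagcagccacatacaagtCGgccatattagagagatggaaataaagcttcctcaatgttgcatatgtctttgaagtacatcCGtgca
Scn4b, chr9:45138374-45138673, plus strand: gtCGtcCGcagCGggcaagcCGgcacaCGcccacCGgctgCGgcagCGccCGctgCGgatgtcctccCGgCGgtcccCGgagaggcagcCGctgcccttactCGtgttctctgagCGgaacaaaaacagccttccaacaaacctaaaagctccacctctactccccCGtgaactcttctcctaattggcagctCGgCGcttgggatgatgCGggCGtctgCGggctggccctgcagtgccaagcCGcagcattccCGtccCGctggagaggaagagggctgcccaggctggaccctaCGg

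The printed region of Scn2b held 2 CG dinucleotides, that of Scn2a 3 and that of Scn1a 5. The region of Scn4b held 26 and that of Scn8a 38, so that the neighbours Scn2b and Scn4b stood far apart. Over all 32851 start regions of this length the median was 7, with quartiles of 3 and 20. The second region of Scn2a (chr2:65668436-65668735) held 9 CG dinucleotides and that of Scn8a (chr15:100936021-100936320) held 12. The regions were also searched on both strands for the left and right parts of the binding motif of REST, a repressor of neuronal genes. The left part TTCAGCACC was in none of the 7 regions and in 0.371% of all start regions. The right part GGACAG, which shares no base with the left part in the motif, was in the second region of Scn8a and in 22.2% of all.

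Between 38774591 and 54695236 reads were counted on genes per library. Chd8 was checked first, since it is the mutated gene. At E12.5 the normalised level of Chd8 was 236, 233 and 238 CPM (counts scaled by library size) in the Chd8+/+ libraries and 164, 169 and 164 CPM in the Chd8+/- libraries. At P5 it was 148, 148 and 143 CPM against 95.2, 97.7 and 94.1 CPM. Chd8 was lower in every Chd8+/- library, by a log2 fold change of -0.51 (standard error, SE, 0.0394, adjusted p = 0.00562) at E12.5 and -0.61 (SE 0.0343, adjusted p = 7.21e-05) at P5 in edgeR's quasi-likelihood test. The E12.5 call was lost when Chd8+/+ replicate 3 (adjusted p = 0.141), Chd8+/- replicate 1 (0.124) or Chd8+/- replicate 3 (0.122) was left out, with the log2 fold change at -0.50 each time, and with a replicate block (0.346). The adjusted p is the Benjamini-Hochberg value over all genes tested, and a gene is called where it is under 0.05. The p-values measure the spread between these libraries, since the labels do not say how the samples of a group were separated. Of 10 lists of cell type markers, every gene was detected at both stages. The summed level of 10 pan-neuronal markers was 3240 to 3847 CPM at E12.5 and 8388 to 8985 CPM at P5, and that of 8 progenitor markers was 4098 to 4402 CPM at E12.5 and 268 to 320 CPM at P5. In such bulk tissue, fewer cells of a type and less RNA per cell cannot be told apart.

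To compare the genes with each other, levels were divided by exonic length and are given as CPM per kilobase, scaled over all 12 libraries. At E12.5 the highest levels in the Chd8+/+ libraries were those of Scn3b, at 8.1 ± 1.36 (SD, n = 3), and Scn3a, at 7.5 ± 0.641, and the libraries of these 2 genes overlapped. Scn8a followed at 3.11 ± 0.304, and then Scn2b at 1.66 ± 0.0434, Scn2a at 1.13 ± 0.132, Scn1a at 0.746 ± 0.0265 and Scn4b at 0.267 ± 0.0502, all without overlap between neighbours in this order. The order was the same in the E12.5 Chd8+/- libraries, except that Scn2b, at 1.15 ± 0.137, overlapped with Scn2a, at 1.12 ± 0.0531. Scn4b rested on only 50 to 81 counts per E12.5 library.

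At P5 the order had changed, and Scn2a had moved from the fifth to the second place. In the Chd8+/+ libraries Scn3b stood at 57.2 ± 0.512 (SD, n = 3) CPM per kilobase, Scn2a at 26.9 ± 1.11, Scn8a at 10.9 ± 0.464, Scn3a at 10.7 ± 0.212, Scn2b at 8.14 ± 0.577, Scn1a at 5.12 ± 0.262 and Scn4b at 0.988 ± 0.155. Scn8a and Scn3a overlapped, and no other neighbours in this order did. The level of Scn3b was above that of 95.6% of the genes tested across the stages, and the level of Scn4b was above that of 30.1%. In the P5 Chd8+/- libraries the order was the same and no neighbours overlapped.

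**Figure D1:**
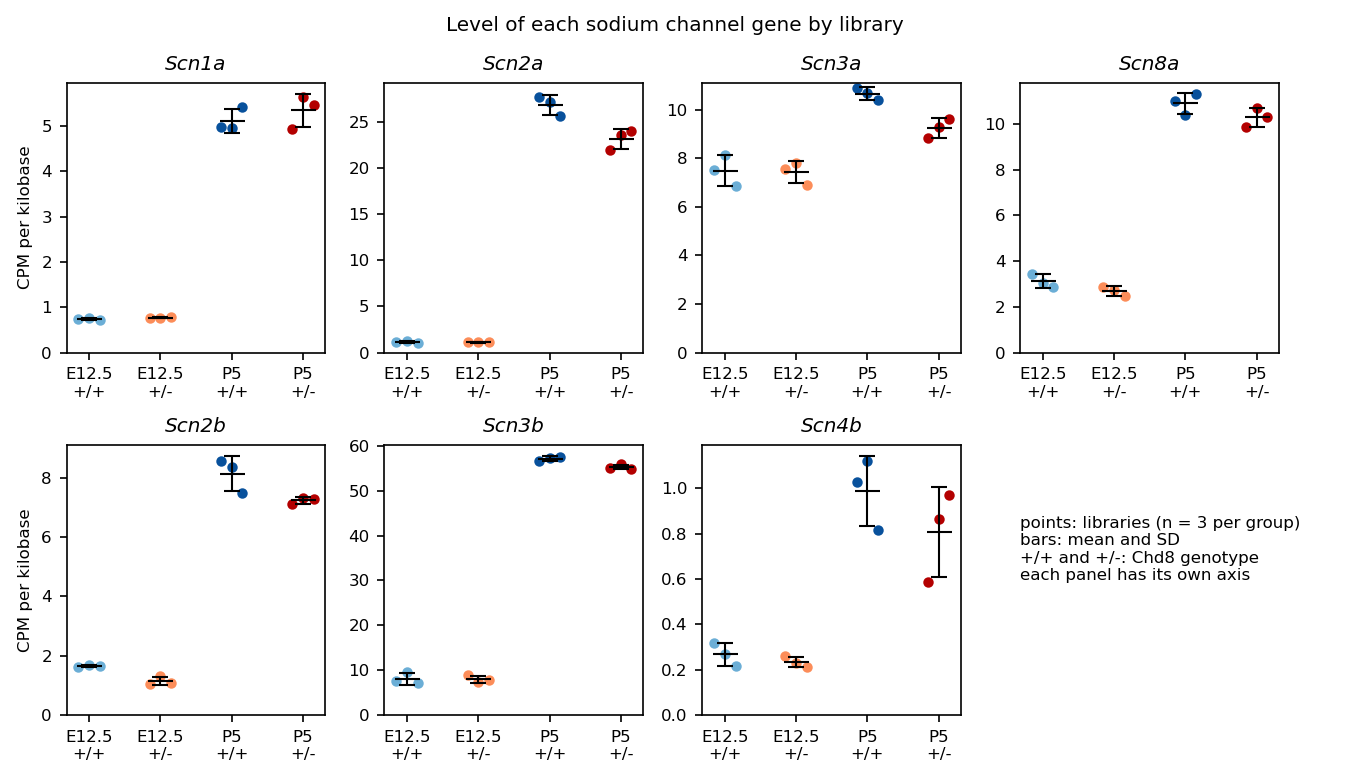
Level of each gene in CPM per kilobase (vertical axes from 0, a separate axis for each gene) in the 3 libraries of each group, with the mean and SD as bars. Every P5 point lies above every E12.5 point of its gene and genotype, and the gap is narrowest as a ratio for Scn3a, at 6.85 to 8.13 against 8.82 to 10.9.

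The first comparison asked how the channel genes changed between the stages. All 7 genes rose from E12.5 to P5 in Chd8+/+ mice, and all 7 in Chd8+/- mice, with no overlap between the libraries of the stages. A call was common in this comparison: 83.1% of the 19676 genes tested were called in Chd8+/+ mice (41.4% higher at P5) and 82.9% in Chd8+/- mice (41.3% higher at P5). The median log2 fold change of the 7 genes was 2.3 in Chd8+/+ and 2.66 in Chd8+/- mice, beside -0.0181 and -0.00462 over all genes tested. Stage cannot be told apart from the separate collection and counting of the 2 stages, nor from the number of hemispheres.

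Scn2a had the steepest rise. Its level in Chd8+/+ mice was 1.15, 1.25 and 0.988 CPM per kilobase at E12.5 and 27.8, 27.2 and 25.7 at P5. This was a rise of 23.8-fold, or a log2 fold change of 4.58 (SE 0.076, adjusted p = 7.73e-16, edgeR). In Chd8+/- mice it rose by a log2 fold change of 4.37 (SE 0.0758, adjusted p = 1.04e-15), or 20.7-fold.

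Scn3a, its neighbour on the chromosome, had the smallest rise. In Chd8+/+ mice the level of Scn3a was 7.51, 8.13 and 6.85 CPM per kilobase at E12.5 and 10.9, 10.7 and 10.4 at P5, a rise of 1.42-fold (log2 fold change 0.51, SE 0.0594, adjusted p = 1.55e-06). In Chd8+/- mice it was 7.57, 7.81 and 6.91 at E12.5 and 8.82, 9.27 and 9.63 at P5, a rise of 1.24-fold (log2 fold change 0.32, SE 0.0596, adjusted p = 0.000196). The 2 neighbouring genes therefore moved by very different amounts over the same interval.

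Scn1a and Scn8a lay between them. The level of Scn1a was 0.718 to 0.771 CPM per kilobase in the E12.5 Chd8+/+ libraries and 4.95 to 5.42 at P5, a rise of 6.87-fold, and the rise in Chd8+/- mice was 6.95-fold. Scn8a went from 2.85 to 3.44 at E12.5 in Chd8+/+ mice to 10.4 to 11.3 at P5, a rise of 3.5-fold, and the rise in Chd8+/- mice was 3.82-fold. The largest adjusted p of these 4 values was 3.55e-12 (edgeR).

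The beta genes also rose. The level of Scn3b was 7.54, 9.65 and 7.12 CPM per kilobase in the E12.5 Chd8+/+ libraries and 56.6, 57.2 and 57.6 at P5, a rise of 7.06-fold. Scn2b went from 1.62, 1.7 and 1.65 to 8.56, 8.37 and 7.48, a rise of 4.92-fold, with 6.31-fold in Chd8+/- mice. Scn4b went from 0.316, 0.27 and 0.216 to 1.03, 1.12 and 0.818, a rise of 3.68-fold, and stayed the lowest of the 7 genes at both stages. These rises are differences of levels relative to all RNA of the tissue. Relative to the summed counts of the 10 pan-neuronal markers of the same library, a measure added after the data were seen, the log2 change in Chd8+/+ mice was 3.24 for Scn2a, 1.49 for Scn3b, 1.44 for Scn1a, 0.96 for Scn2b, 0.47 for Scn8a, 0.55 for Scn4b and -0.83 for Scn3a. On that scale Scn3a was thus lower at P5 than at E12.5 in every library, and the libraries of the stages overlapped for Scn4b.

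**Figure D2:**
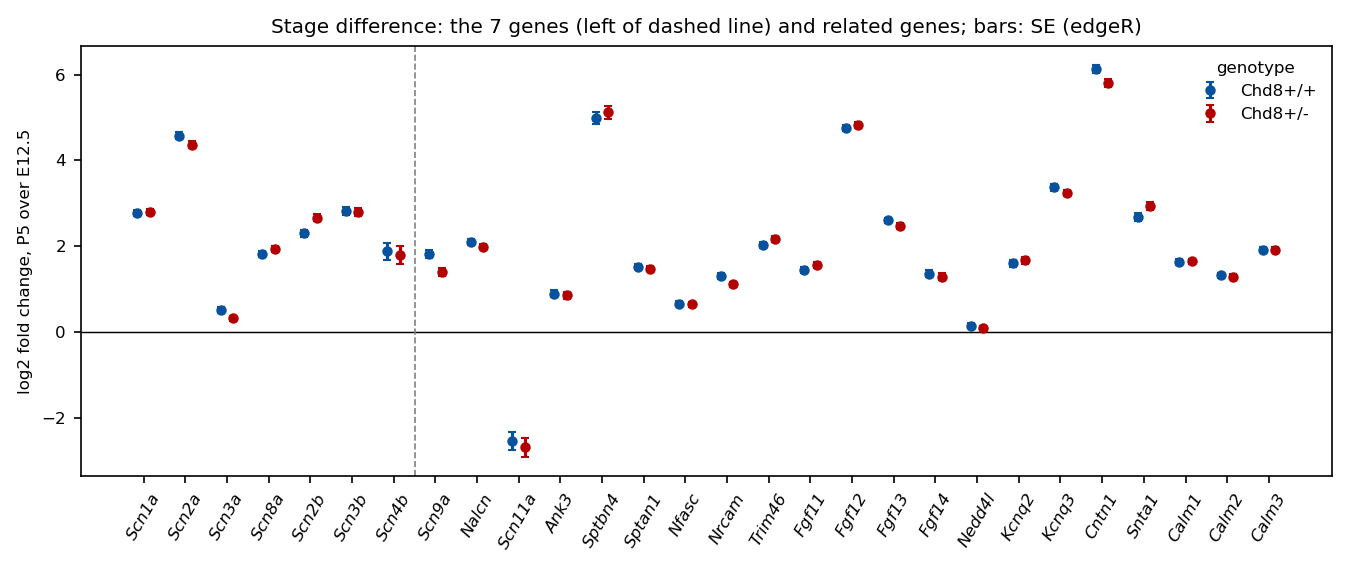
Log2 fold change from E12.5 to P5 (vertical axis) in Chd8+/+ and Chd8+/- mice, with the SE from edgeR as bars, for the 7 genes and for related genes. Scn2a stands highest of the 7 at 4.58 and 4.37, and Scn3a lowest at 0.51 and 0.32.

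The make-up of the alpha genes changed accordingly. Scn3a made up 58.4%, 61.6% and 60.1% of the summed level of the 4 alpha genes per kilobase in the E12.5 Chd8+/+ libraries and 19.8%, 20.1% and 19.8% at P5. Scn2a made up 8.95%, 9.47% and 8.67% at E12.5 and 50.9%, 51.2% and 48.6% at P5. The leading alpha gene was thus Scn3a at E12.5 and Scn2a at P5 in every library. The share of Scn1a went from 5.99% ± 0.271 (SD, n = 3) to 9.56% ± 0.616 and that of Scn8a from 24.9% ± 1.87 to 20.3% ± 0.949. The summed level of the alpha genes in Chd8+/+ libraries was 12.5 ± 0.95 CPM per kilobase at E12.5 and 53.6 ± 0.985 at P5, and in Chd8+/- libraries 12 ± 0.679 and 48.1 ± 2.18.

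Among the 3 beta genes, Scn3b led at both stages. It made up 79.6%, 83% and 79.3% of their summed level per kilobase in the E12.5 Chd8+/+ libraries and 85.5%, 85.8% and 87.4% at P5. Scn2b went from 17.1%, 14.7% and 18.3% to 12.9%, 12.5% and 11.3% although its own level rose, and Scn4b from 2.69% ± 0.564 (SD, n = 3) to 1.49% ± 0.226. In Chd8+/- mice the stages overlapped for the shares of Scn3b and Scn2b, with Scn3b at 85.2% ± 2.26 and 87.3% ± 0.418. The ratio of the summed level of the 3 beta genes to that of the 4 alpha genes was 0.802 ± 0.0732 at E12.5 and 1.24 ± 0.0232 at P5 in Chd8+/+ mice, and 0.782 ± 0.0594 and 1.32 ± 0.0525 in Chd8+/- mice. At P5 the genotypes did not overlap in this ratio (1.21 to 1.25 in Chd8+/+ and 1.28 to 1.38 in Chd8+/-). They did not overlap in the alpha sum (52.8 to 54.7 and 45.6 to 49.5) or the beta sum (65.9 to 66.7 and 62.8 to 64.1) either. The ratio and the sums were not tested. Among single genes at P5, every Chd8+/- library was below every Chd8+/+ library for 12.2% of all genes tested.

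Of 28 comparisons of shares between groups, the libraries of the 2 groups did not overlap in 14, which were 12 of the 14 between stages and 2 of the 14 between genotypes. With 3 libraries against 3, the two-sided exact permutation test cannot go below p = 0.1, which is the p of each of these 14. After Benjamini-Hochberg adjustment over the 28, with stages and genotypes pooled, it was 0.2. Groups that do not differ would also fail to overlap in a share of 0.1 of such comparisons. The 2 without overlap between genotypes were Scn1a and Scn3a at P5. At P5 the share of Scn1a was 9.13%, 9.29% and 10.3% in Chd8+/+ and 10.8%, 11.5% and 11% in Chd8+/- libraries, and that of Scn3a was 19.8%, 20.1% and 19.8% against 19.4%, 18.9% and 19.5%. The difference of Scn3a between genotypes was thus far smaller than that between stages.

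**Figure D3:**
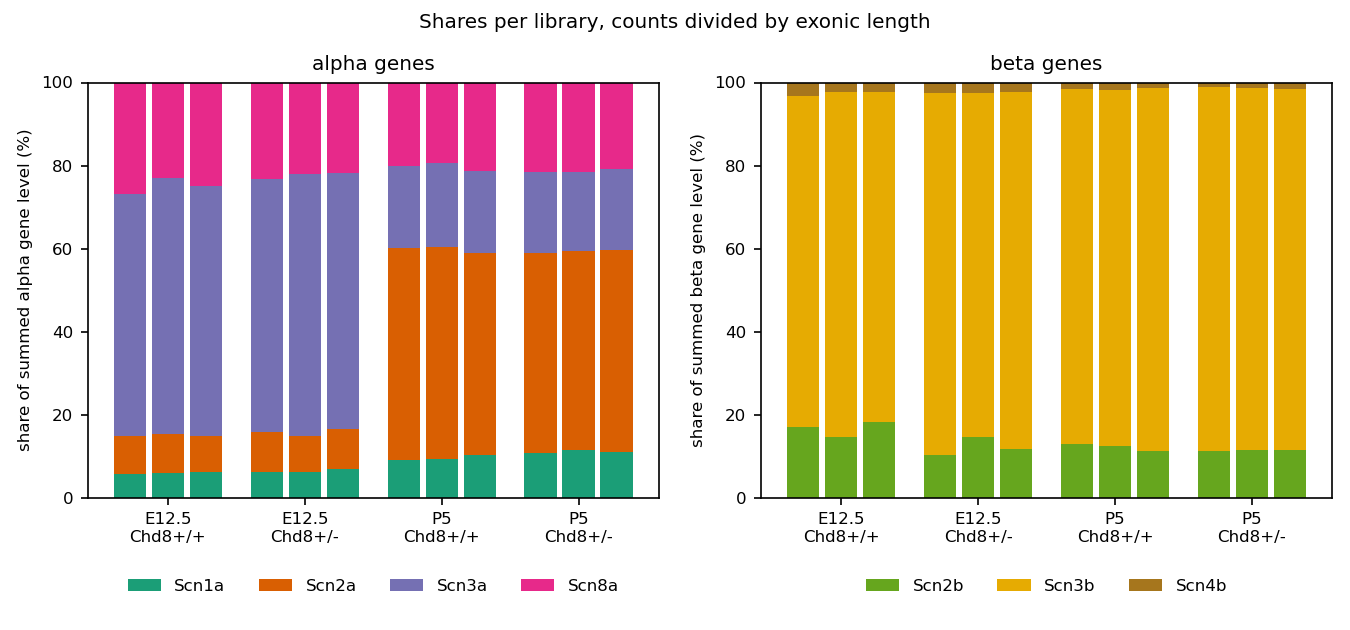
Share of each gene in the summed level per kilobase (vertical axis, percent) of the 4 alpha genes (left) and the 3 beta genes (right), 1 bar per library, 3 bars per group. In Chd8+/+ libraries Scn3a fills 60% of the alpha bars on average at E12.5, and Scn2a 50.2% at P5.

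The second comparison asked whether loss of 1 Chd8 allele changed the channel genes at E12.5. None of the 7 genes was called by edgeR, where 0.00553% of the 18081 genes tested were called, which was Chd8 alone. At an unadjusted p under 0.05, Scn2b and Scn8a were lower in Chd8+/- libraries, against 2.84% of all genes tested. DESeq2, the test of the study, called none of the 6 that passed its own filter, which Scn4b did not. It called 5 of all 13419 genes that passed.

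The largest value was that of Scn2b. Its level was 7.46, 7.93 and 7.59 CPM in the E12.5 Chd8+/+ libraries and 4.9, 6.02 and 4.98 CPM in the Chd8+/- libraries, with 189 to 266 counts in each of the latter. Every Chd8+/- library lay below every Chd8+/+ library, as for 5.90% of all genes tested. The log2 fold change was -0.53 (SE 0.107) and its adjusted p was 0.924 with edgeR and 0.107 with DESeq2, so that the difference did not pass.

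Scn8a was 54.9, 48.9 and 45.4 CPM in the E12.5 Chd8+/+ libraries and 45.8, 43.9 and 39.2 CPM in the Chd8+/- libraries, which overlapped, with a log2 fold change of -0.21 (SE 0.0833, adjusted p = 0.942, edgeR), or -0.14 with Chd8+/+ replicate 1 omitted. The embryonic gene Scn3a was 94.6, 103 and 86.3 CPM against 95.6, 98.5 and 87.4 CPM, and its log2 fold change was -0.01 (SE 0.0706). Those of Scn2a and Scn3b were -0.01 (SE 0.094) and -0.02 (SE 0.117), that of Scn1a was 0.05 (SE 0.0786) and that of Scn4b was -0.20 (SE 0.194), which became -0.06 when Chd8+/+ replicate 1 was omitted and -0.33 when Chd8+/+ replicate 3 was. The libraries of the genotypes overlapped for all of these. At E12.5 the summed endothelial markers (170 to 173 CPM in Chd8+/+, 153 to 159 CPM in Chd8+/-) and microglia markers (27 to 27.6 CPM, 23.4 to 26.7 CPM) were lower in every Chd8+/- library, and the other 8 lists overlapped; their part in the value of Scn2b was not tested.

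The third comparison asked the same at P5. Here 6 of the 7 genes had a value below 0, beside 49.6% of all genes tested. None of the 7 was called by edgeR, where 0.00536% of the 18666 genes tested were called, again Chd8 alone. That number rested on the libraries used: leaving out Chd8+/- replicate 2 gave 327 calls among 19044 genes, and leaving out any other P5 library gave 1 to 5 calls, with none of the 7 genes called in either case. DESeq2 called Scn2a and Scn3a lower in Chd8+/- mice, against 3.55% of the 12467 genes that passed its own filter. At an unadjusted p under 0.05 with edgeR, Scn2a, Scn3a and Scn2b were lower, against 9.77% of all genes tested. Every Chd8+/- library was below every Chd8+/+ library for 4 of the 7 genes, which were Scn2a, Scn3a, Scn2b and Scn3b, against 12.2% of all genes tested. The median log2 fold change was -0.153 over the 7 genes and 0.00169 over all genes tested.

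Scn2a was at 27.8, 27.2 and 25.7 CPM per kilobase in the P5 Chd8+/+ libraries and 22, 23.6 and 24.1 in the Chd8+/- libraries, or 336 ± 13.3 and 293 ± 13.3 CPM (SD, n = 3). Every Chd8+/- library was below every Chd8+/+ library. The log2 fold change was -0.20 (SE 0.0454), or 0.872 of the Chd8+/+ level, and its adjusted p was 0.11 with edgeR but 0.00271 with DESeq2.

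Scn3a gave nearly the same difference. It was 133, 130 and 128 CPM in the P5 Chd8+/+ libraries and 109, 114 and 119 CPM in the Chd8+/- libraries, again without overlap. The log2 fold change was -0.19 (SE 0.0393), or 0.877 of the Chd8+/+ level, and its adjusted p was 0.0973 with edgeR but 0.0048 with DESeq2. In both genes Chd8+/- replicate 1 was the lowest library and Chd8+/+ replicate 1 the highest.

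The calls of Scn2a and Scn3a depended on the processing. With every gene that had at least 1 count kept in the test, edgeR called both (adjusted p = 0.00505 and 0.00373), but in that setting it called 995 of all 31265 genes tested. Without Chd8+/+ replicate 1, DESeq2 called neither (adjusted p = 0.142 and 0.154), whereas both stayed called without any other P5 library. In the former fit it called 48 of all 12844 genes, beside 651 of 12467 with all libraries, and the log2 fold changes were -0.17 and -0.18. Long genes were lower at P5 in general: of 2393 tested genes with a span of at least 100 kb, 72.1% had a value below 0 and the median log2 fold change was -0.0616, beside 0.0126 for shorter genes. With an offset that removed the trend of each library with genomic span, the log2 fold changes of both genes were -0.13, and DESeq2 called neither (adjusted p = 0.0585 for Scn2a and 0.0839 for Scn3a), with 267 of all 13072 genes called. With an offset for exonic length they were -0.12.

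**Figure D4:**
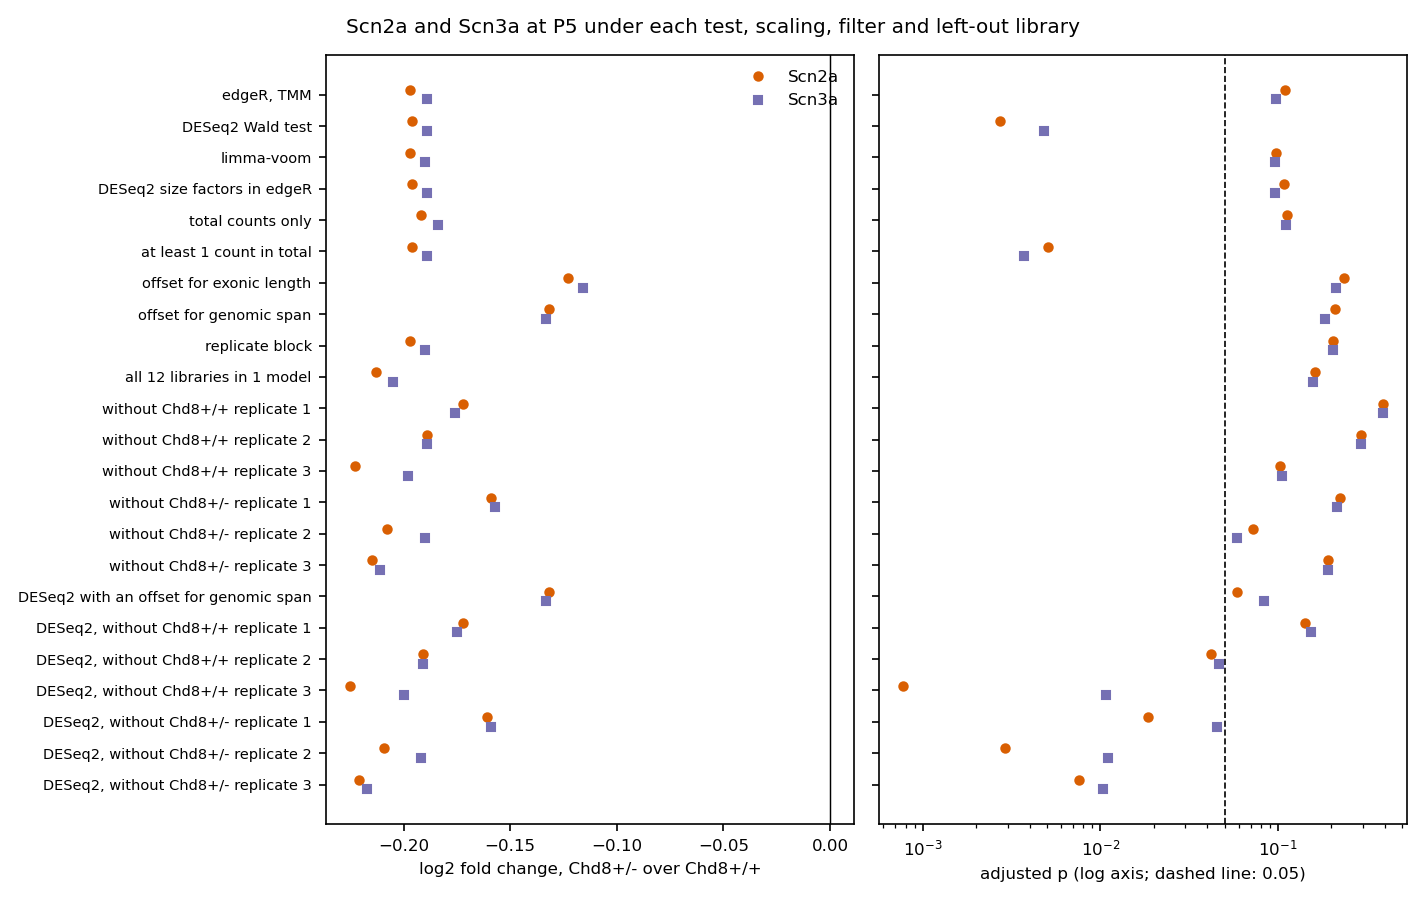
Log2 fold change of Scn2a and Scn3a at P5, Chd8+/- over Chd8+/+ (left), and adjusted p on a log axis (right), under each test, scaling, filter, offset and left-out library. All log2 fold changes lie below 0, between -0.23 and -0.12, whereas the adjusted p falls on both sides of 0.05.

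Neither of the other alpha genes was called by edgeR or DESeq2. Scn1a, at 54.6, 53.9 and 59.4 CPM in the P5 Chd8+/+ libraries and 54.8, 62.3 and 60.4 CPM in the Chd8+/- libraries, was the only gene of the 7 with a value above 0 (log2 fold change 0.08, SE 0.0556, adjusted p = 0.486, edgeR). Scn8a was 170, 160 and 175 CPM against 154, 166 and 161 CPM (log2 fold change -0.07, SE 0.0449, adjusted p = 0.444). The genotypes overlapped for both. With single libraries omitted the value ran from 0.04 (Chd8+/- replicate 2) to 0.13 (Chd8+/- replicate 1) for Scn1a and from -0.10 (Chd8+/+ replicate 2) to -0.04 (Chd8+/+ replicate 3) for Scn8a. With the offset for genomic span the value of Scn1a was 0.15 and that of Scn8a was -0.000133, and the difference between the alpha genes was not tested.

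Among the beta genes, Scn2b was 38.3, 37.3 and 33.6 CPM in the P5 Chd8+/+ libraries and 32.3, 33 and 33 CPM in the Chd8+/- libraries, a log2 fold change of -0.15 (SE 0.0561) whose adjusted p was 0.203 with edgeR and 0.16 with DESeq2. Chd8+/+ replicate 3 lay close to the Chd8+/- libraries. Scn3b was 308, 310 and 314 CPM against 304, 307 and 302 CPM, so that its genotypes did not overlap although the log2 fold change was only -0.03 (SE 0.0336, adjusted p = 0.651, edgeR). Scn4b was 4.97, 5.42 and 3.97 CPM against 2.88, 4.23 and 4.76 CPM, with overlap, and its value of -0.27 had an SE of 0.177. Omitting Chd8+/- replicate 1 gave -0.09 for Scn4b, omitting Chd8+/+ replicate 2 gave -0.17, and omitting Chd8+/- replicate 3 gave -0.42.

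**Figure D5:**
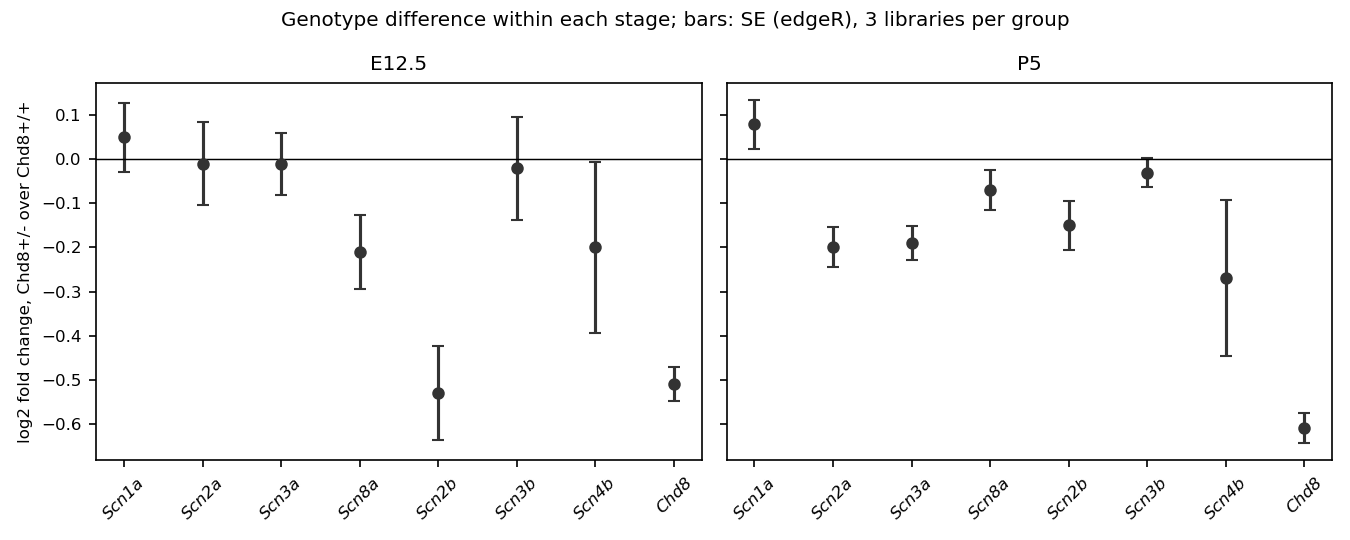
Log2 fold change, Chd8+/- over Chd8+/+, of the 7 genes and Chd8 at E12.5 (left) and P5 (right), with the SE from edgeR as bars and 3 libraries per group. Scn2b stands lowest of the 7 at E12.5, at -0.53, and Scn2a and Scn3a are at -0.20 and -0.19 at P5.

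At P5 the summed levels of 3 of the 10 marker lists were lower in every Chd8+/- library, and the other 7 lists overlapped. GABAergic interneuron markers summed to 690 to 711 CPM in Chd8+/+ and 591 to 668 CPM in Chd8+/- libraries, striatal medium spiny neuron markers to 267 to 290 and 198 to 242 CPM, and choroid plexus markers to 434 to 563 and 317 to 375 CPM. All 6 striatal and all 5 choroid plexus markers were lower at an unadjusted p under 0.05 with edgeR, against 9.77% of all genes tested. So were 4 of the 5 endothelial, 3 of the 8 GABAergic, 3 of the 8 progenitor, 3 of the 10 pan-neuronal and 2 of the 8 cortical excitatory markers. On the same measure 1 progenitor marker and 2 pan-neuronal markers were higher. The endothelial and progenitor sums overlapped. The part of these cells in the values of Scn2a and Scn3a was not tested. Cortical excitatory neuron markers, at 1305 to 1395 and 1289 to 1354 CPM, and pan-neuronal markers, at 8760 to 8985 and 8388 to 8940 CPM, overlapped. Relative to the pan-neuronal sum of the same library, the log2 difference was -0.19 for Scn2a and -0.18 for Scn3a. Each was lower in every Chd8+/- library (p = 0.1 for both, exact permutation test, the smallest possible with 3 against 3). Scn2b (-0.15) and Scn3b (-0.03) overlapped on that scale, on which the share over all genes was not counted.

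The last comparison asked whether the genotype difference differed between the stages. The interaction of genotype and stage called none of the 7 genes, where 0% of the 19676 genes tested were called by edgeR, while 10% had an unadjusted p under 0.05 and DESeq2 called 8 genes, none of them among the 7, of which Scn2b and Scn4b did not pass its filter. The interaction value is the log2 fold change at P5 minus that at E12.5. It was 0.36 (SE 0.109, adjusted p = 0.362) for Scn2b, -0.19 (SE 0.084, adjusted p = 0.474) for Scn3a and -0.20 (SE 0.0983, adjusted p = 0.508) for Scn2a. Scn2b and Scn3a had an unadjusted p under 0.05. Omitting E12.5 Chd8+/+ replicate 3 gave -0.12 for Scn3a and -0.11 for Scn2a, and omitting E12.5 Chd8+/+ replicate 2 gave -0.24 and -0.27. For Scn1a, Scn3b and Scn4b the values were 0.02, -0.03 and -0.09, each smaller than its SE. That of Scn8a was 0.13 (SE 0.0962), and it ran from 0.08 to 0.20 with single libraries omitted. A difference between the stages in the genotype values of Scn2a or Scn3a therefore did not pass the test with these libraries.

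Genes related to the channels were taken from a list of 8 other sodium channel genes and a list of 18 partners and axon initial segment genes. Scn4a did not pass the filter in any comparison and Scn7a did not at E12.5. Between the stages in Chd8+/+ mice, all 18 partners rose, with a median log2 fold change of 1.62, and 4 of the 7 other sodium channel genes tested rose and 2 fell, where 41.4% of all genes tested rose and 83.1% were called in either direction. Among the partners, Cntn1, an adhesion protein that binds channel beta subunits, rose by 6.13, Sptbn4, the spectrin of the axon initial segment, by 4.99, and Ank3, which encodes ankyrin-G, by 0.89, all as log2 fold changes. Scn11a, a sensory neuron gene, fell by 2.55. In Chd8+/- mice 17 of the 18 partners rose, and Nedd4l, a ubiquitin ligase of channels, did not pass (0.09, beside 0.14 in Chd8+/+ mice). The difference between genotypes in these changes was tested by the interaction, which called none of the 25 related genes tested.

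At P5 edgeR called none of the 25 related genes tested between genotypes, and 8 were lower and 1 higher at an unadjusted p under 0.05, where 9.77% of all genes tested were lower. DESeq2 called 3 of the 22 that passed its filter, all lower in Chd8+/- mice, where it called 3.55% of all genes lower. Cntn1 was 608, 636 and 558 CPM in the Chd8+/+ and 479, 540 and 535 CPM in the Chd8+/- libraries (log2 fold change -0.21, SE 0.058, adjusted p = 0.128 from edgeR and 0.00647 from DESeq2). Nrcam, an adhesion molecule of the axon initial segment, was 335, 335 and 315 CPM against 291, 288 and 305 CPM (-0.16, SE 0.0408, adjusted p = 0.121 and 0.0107). Scn9a, which follows Scn1a on the chromosome and is best known from pain-sensing neurons, was 27.8, 26.9 and 31.6 CPM against 22.4, 23.8 and 26 CPM (-0.26, SE 0.0749, adjusted p = 0.141 and 0.0381). A short stretch of Scn9a exons overlaps an antisense gene with at most 7 counts per library. The channel anchor Ank3 was at -0.08 (SE 0.0346), and Nfasc at -0.07 (SE 0.053).

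At E12.5 edgeR called none of the 24 related genes tested, and 1 was higher and 1 lower at an unadjusted p under 0.05, where 932 of all 18081 genes tested passed and 2.84% were lower.

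Genes with a profile like that of each alpha gene were sought over the 12 libraries. Likeness was measured as the root mean square difference between log2(CPM + 0.5) profiles, each centred on its own mean, so that it is set mostly by the stage difference. The nearest genes to Scn2a were Cadm2, Ptprt and Rap1gap, with differences of 0.1, 0.107 and 0.114. Those to Scn3a were Tmx4, Tcaf1 and Ttc3 (0.064, 0.065 and 0.071), and among those to Scn8a were Mast1 and Sgsm1 (0.069 and 0.07). Among those nearest to Scn1a were Radil and Ephb6 (0.072 and 0.076). The median over all genes tested was 2.224 for Scn2a, 0.442 for Scn3a, 0.974 for Scn8a and 1.374 for Scn1a. Among pairs of the 7 genes that hold at least 1 alpha gene, Scn1a and Scn3b were the closest, with a difference of 0.121, and Scn2a and Scn3a the farthest apart, with 2.009.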

How the data were processed

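Mouse neocortex RNA was sequenced in 12 libraries, 3 for each genotype and stage. Per the submitters' processing notes, the authors used Trim Galore 0.4.1 for trimming, TopHat2 2.1.0 for alignment to GRCm38 and featureCounts 1.5.0 for counting on genes. The deposited values are raw read counts per gene and sequencing run, and the deposited gene length, used here per kilobase, is that of the merged exons. The P5 counting ignored strand, per the file headers, and the E12.5 setting is not given in the sources used here. The authors' own test was DESeq2 1.10.1.

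The 2 runs of each library were summed. Symbols were matched to 46005 of the gene identifiers. Genotypes were compared within each stage, and stages and their interaction in 1 model of 12 libraries, with edgeR 4.0.16 (R 4.3.3): TMM scaling, filterByExpr and quasi-likelihood tests, with p-values adjusted over all genes tested (Benjamini-Hochberg, threshold 0.05). CPM use the TMM library sizes of the stage, and levels per kilobase those of all 12 libraries. A gene's exonic length counts all annotated isoforms, which limits comparisons of levels between genes. Alternatives were DESeq2 1.42.0, limma-voom (limma 3.58.1), other scalings, no filter on low counts, loess offsets (span 0.5) for exonic length or genomic span, a replicate block, all 12 libraries in 1 model and each library left out. DESeq2 with the offset for genomic span and with each P5 library left out were added after the data were seen. Shares and levels relative to the pan-neuronal sum were tested with exact permutation tests (scipy 1.17.1). The edgeR and DESeq2 procedures were also run on simulated P5 counts with known changes. These held no trend with genomic span, and nothing on Scn2a or Scn3a was concluded from them. The genes, gene lists and alternatives were chosen with earlier results of these data known. Named are the 7 genes and Chd8, the related genes called at P5 by edgeR or DESeq2, and the 3 genes nearest in profile to each alpha gene; other related genes named were chosen after their values were seen. Results that need certain genes are not reported here, and beta shares are therefore over the 3 beta genes. Start regions came from RefSeq.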

Additional observations from a re-analysis of the deposited data

How the results depend on the processing

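All 7 genes were called higher at P5 in both genotypes under each alternative, and all 252 single values of these comparisons kept their direction and side of the threshold. Between genotypes, no gene of the 7 was called at E12.5 or for the interaction under any alternative run. At P5 the count of 0 became 2 (Scn2a and Scn3a) with DESeq2 and 2 with every gene of at least 1 count kept, and the count of related genes went from 0 to 3 and 4. The count of 2 with DESeq2 was 0 with an offset for genomic span and 0 to 2 with a library left out, the 0 being without Chd8+/+ replicate 1. With an offset for exonic length the P5 values of Scn8a and Scn3b turned to 0.0134 and 0.000638. With a library left out, values near 0 changed sign: at E12.5 Scn2a ran from -0.0999 to 0.0718, Scn3a from -0.0766 to 0.0533 and Scn3b from -0.105 to 0.13, and for the interaction Scn1a ran from -0.0224 to 0.0722, Scn3b from -0.162 to 0.071 and Scn4b from -0.242 to 0.0981. In each of these cases the cause was not tested. The count of shares without overlap was 14 to 19 with a library left out, beside 14 with all libraries. It could only stay or rise, since groups without overlap remain so when a library is removed. In total 565 of 588 single values kept their direction and side of the threshold.

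Same-numbered libraries correlated in their deviations by -0.311, -0.144 and -0.162 at E12.5 and by 0.255, 0.115 and 0.0289 at P5. All 3 P5 values were positive but not all were over 0.1, and P5 Chd8+/+ replicate 2 correlated best with Chd8+/- replicate 3 (0.149), so the numbers were not treated as a pairing. With the replicate number as a block, Chd8 was no longer called at E12.5 (adjusted p = 0.346), and 0 of the 7 genes were called at E12.5, 0 at P5 and 0 for the interaction, and 7 between stages in each genotype. Scn4b had 50 to 81 counts per E12.5 library and the largest SE of the 7 genes between genotypes at both stages (0.194 and 0.177).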
